A study of Homo sapiens with 24 samples.

Results

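The step from 8 h to 24 h of RAS induction was described in 6 arrays of a 24-array time course, the 3 arrays of cells kept for 24 h in 4-hydroxytamoxifen (4-OHT) against the 3 arrays of cells kept in it for 8 h, each set holding biological batches A, B and D. The arrays were chosen by the time point and batch letter in their labels, and 10958 genes were tested. All cells were IMR90, a line of human fetal lung fibroblasts, and all expressed ER:RAS-G12V, an oncogenic RAS protein fused to an estrogen receptor that 4-OHT switches on. The 24 h cells had received 100 nM 4-OHT for 24 h, and the 8 h cells 100 nM 4-OHT for 8 h. The other time points were 0 h (no 4-OHT), 2 h, 2 d, 4 d, 6 d and 8 d, with 3 arrays each. Per the labels, cells were passaged with trypsin on the day before harvest. The 24 arrays include none of cells without 4-OHT at 8 h or 24 h. Time in 4-OHT, time of RAS activity and time since a change of medium therefore cannot be told apart. Whether the hours since passage differed between the 24 h and 8 h cells was not tested. The labels do not say which promoter drives ER:RAS or how many clones the cells came from.

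Oncogenic RAS signals through the kinases RAF, MEK and ERK, which induce immediate early transcription factors such as the AP-1 proteins and then the genes those factors bind. In normal fibroblasts strong RAS signalling first drives cell division and later a lasting arrest, oncogene-induced senescence, which brings CDK inhibitors, secretion of inflammatory factors and changes in chromatin. Fibroblasts are also the main makers of extracellular matrix, and the contractile and matrix genes they use respond to TGF-beta, to serum through SRF, and to attachment and tension through YAP.

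Values are log2 intensities from single-colour Illumina bead arrays, on which a step of 1 is a factor of 2 in measured intensity. The 6 arrays had 26.6% to 28.8% of probes above background. Before normalization the batch D array of 24 h was brighter in its background, with a median log2 intensity of 6.04, against 5.68 and 5.76 for the other two 24 h arrays and 5.66 to 5.78 for the 8 h arrays. All 15 fibroblast markers were above background on all 6 arrays, while CDH1 of epithelial cells, CDH5 and EMCN of endothelial cells and PTPRC of immune cells were above background on 0 of them. KRT18 and MUC1, 2 of 11 epithelial markers on the array, were above background on all 6 arrays, as was TEK, 1 of 8 endothelial markers. So were CD68 and CSF1R, 2 of 8 immune markers. On at least 1 of the 6 arrays, 5 of 11 epithelial, 6 of 8 endothelial and 2 of 8 immune markers were above background. KRT8 and KRT19 were above background on 3 of 3 arrays at 8 h and 0 of 3 at 24 h. The part of these markers in the results was not tested. In a principal component analysis of the 24 arrays, the first component (65.8% of the variance) did not separate the 24 h arrays, at −30.4 to −26.1, from the 8 h arrays, at −31.0 to −25.4. The second (10.2%) held the 24 h arrays between 15.7 and 18.9, overlapping the 2 d arrays at 16.6 to 20.9, and held the 8 h arrays between −4.65 and −2.63, and the 0 h and 2 h arrays between −18.8 and −10.2. A bulk array cannot tell fewer cells of a kind from less RNA per cell.

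Between 8 h and 24 h more genes fell than rose, and among the genes that fell were members of the matrix, contractile and inflammatory lists, with counts given for each list where it is described. Of 10958 genes, 922 passed an adjusted p of 0.05 (8.41%) in limma's moderated test with batch as a block, 300 of them higher at 24 h (2.74%) and 622 lower (5.68%). At least 2-fold changes among them numbered 52 (0.475%), with 6 genes higher (0.0548%) and 46 lower (0.42%). The 24 h and 8 h arrays did not overlap for 1434 genes that were higher (13.1%) and 1597 that were lower (14.6%) on all 3 of the 24 h arrays, and the difference had the same sign in all 3 batch pairs for 2594 higher (23.7%) and 2809 lower (25.6%) genes. The shares called, 2.74% higher and 5.68% lower, are the background for the count of each list. The split of the calls depended on scaling. With arrays centred on their medians in place of quantile normalization, the median difference of all genes was −0.15 in place of 0.00, and 391 genes passed, 10 higher (2.56% of the calls, against 32.5%) and 381 lower. The count also depended on the arrays used. It was 556, 606 and 589 without the 24 h array of batch A, B and D. Without the 8 h array of batch A, B and D it was 488, 490 and 794. Without the pair of batch A, B and D it was 331, 344 and 516. A fit of the 6 arrays alone called 1623 genes.

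**Figure D1:**
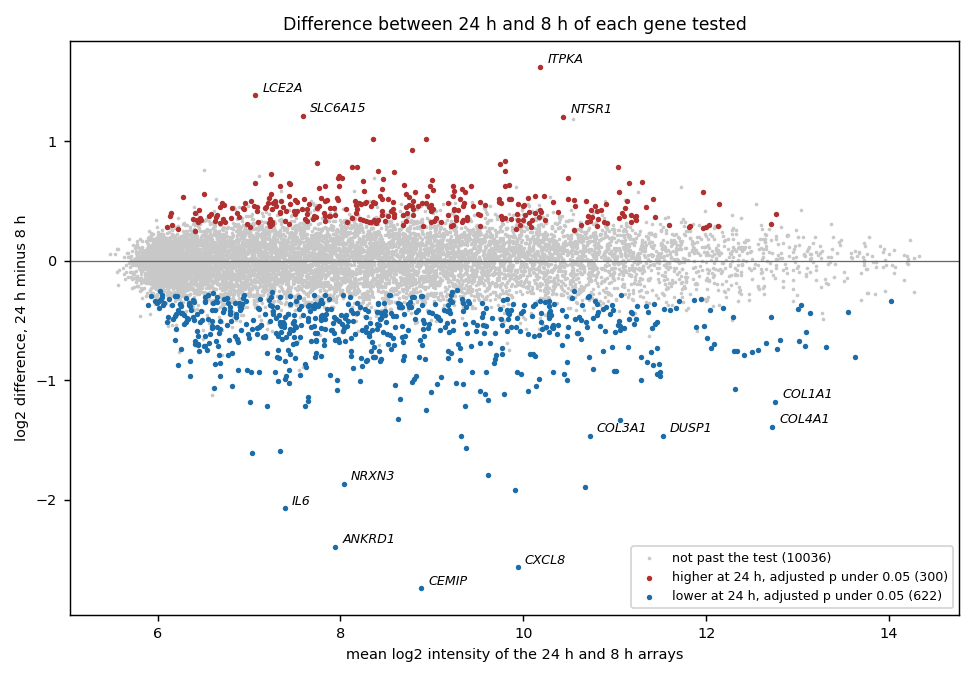
Difference between 24 h and 8 h (24 h minus 8 h, log2, vertical axis) of each of the 10958 genes tested against its mean log2 intensity on the 24 h and 8 h arrays (horizontal axis). Red points are the 300 genes called higher at 24 h and blue points the 622 called lower; the falls reach −2.74 (CEMIP) and the rises 1.63 (ITPKA).

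The inflammatory cytokines were among the largest falls. CXCL8, which encodes the neutrophil chemokine interleukin-8, had log2 intensities of 8.74, 8.55 and 8.67 on the 24 h arrays of batches A, B and D, against 11.60, 10.75 and 11.31 on the 8 h arrays. The arrays did not overlap, and CXCL8 was 5.92-fold lower at 24 h (log2 difference −2.57 ± 0.28, standard error, adjusted p = 7.776e-06). IL6, a cytokine that acts through the gp130 receptor, had 6.45, 6.29 and 6.31 at 24 h, against 8.83, 8.30 and 8.15 at 8 h. It was 4.20-fold lower (−2.07 ± 0.28, adjusted p = 8.428e-05), and its 24 h levels stood close above background. IL11, a second cytokine that uses gp130, had 8.93, 8.89 and 9.03 at 24 h, against 11.46, 10.97 and 10.18 at 8 h (−1.92 ± 0.39, adjusted p = 0.003401). The 8 h arrays of IL11 spread more widely than the 24 h arrays, and its call was lost without the pair of batch A or of batch B (adjusted p up to 0.0912). The chemokine gene CCL2 had 7.94, 7.76 and 8.19 at 24 h, against 9.29, 8.94 and 9.65 at 8 h, a fall of 2.51-fold (−1.33 ± 0.14). PTGS2, the inducible cyclooxygenase, had 6.50, 6.09 and 6.103 at 24 h, where 1 of 3 arrays was above background, against 8.23, 8.10 and 7.18 at 8 h (−1.61 ± 0.36, adjusted p = 0.007302). Its call was also lost without the pair of batch A or B (adjusted p up to 0.118).

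For 45 measured secretory factors linked to senescence, the median difference was −0.20, against 0.00 for all genes. Of these 45, 12 passed, all lower at 24 h, against 5.68% of all genes. Beside CXCL8, IL6, IL11 and CCL2, these were the growth factor binding proteins IGFBP3 (−1.89 ± 0.29), IGFBP5, IGFBP7 and IGFBP4, the lipase inhibitor ANGPTL4, the protease inhibitor SERPINE2, the adhesion molecule ICAM1 and the protease PLAU, the last at −0.34. IGFBP3 had 9.79, 9.72 and 9.67 at 24 h, against 11.58, 12.22 and 11.05 at 8 h, so that the 24 h arrays lay close together and the 8 h arrays apart. IGFBP4 lost its call in 6 alternatives (adjusted p up to 0.212). Genes of the inflammatory list that did not pass include IL1B (−0.24 ± 0.27), which was above background on 2 of 3 arrays at each time, and LIF (−0.50 ± 0.23, adjusted p = 0.2097). NF-kB is the transcription factor family that drives many of these genes and its own inhibitors. Of 28 measured genes of its pathway 9 passed, 8 of them lower, with a median of −0.28, beside 8.41% of all genes called and 5.68% lower. TNFAIP3, a deubiquitinase that restrains NF-kB signalling, had 6.55, 6.56 and 6.56 at 24 h, against 7.62, 7.51 and 7.32 at 8 h (−0.93 ± 0.15). NFKBIZ and NFKBIA, which encode IkB proteins, differed by −0.81 (a second NFKBIZ probe by −0.11) and −0.70, and the calls were lost without the pair of batch A (adjusted p = 0.0764 and 0.0506). For NFKBIA the call was also lost without the 24 h array of batch B (adjusted p = 0.0513) and without the 8 h array of batch D, where the difference was −0.46 (adjusted p = 0.0658). CEBPB, a transcription factor of inflammatory genes, was the member that rose (0.58 ± 0.13), a call lost in 5 alternatives (adjusted p up to 0.428, with median centring). The count of 9 became 5, 4 and 5 without the 24 h arrays of batch A and B and the 8 h array of batch D, and 2 and 4 without the pairs of batch A and B.

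Many genes of the extracellular matrix fell. Of 44 measured members (of 48 on the array) 23 passed, all lower at 24 h, against 5.68% of all genes, and the list's median was −0.49. On all 3 pairs the list's median was of similar size, at −0.54, −0.42 and −0.55. COL1A1, a chain of type I collagen, had 12.14, 11.96 and 12.40 at 24 h, against 13.38, 13.28 and 13.38 at 8 h. The arrays stood apart by more than the spread within either time, and COL1A1 was 2.26-fold lower (−1.18 ± 0.10, adjusted p = 3.434e-07). COL3A1, the type III collagen chain, had 10.01, 9.88 and 10.09 at 24 h, against 11.44, 11.62 and 11.31 at 8 h (−1.46 ± 0.15). COL4A1, a chain of basement membrane collagen, had 12.10, 11.88 and 12.10 at 24 h, against 13.57, 13.34 and 13.35 at 8 h, and was 2.62-fold lower (−1.39 ± 0.10, adjusted p = 8.155e-08). COL15A1, another collagen of basement membranes, differed by −1.04 ± 0.11. The calls of these 4 collagens held in every alternative run. The other 19 called members had smaller differences, and they were the collagens COL5A2, COL4A2, COL1A2, COL11A1, COL5A1 and COL6A1, the small proteoglycans LUM, DCN and BGN, the elastic fibre proteins MFAP4, EFEMP1, EFEMP2 and FBLN2, the nidogen NID2, the crosslinking enzymes LOX and LOXL1, SPARC, CTHRC1 and THBS1. Among these, LUM differed most (−0.95) and EFEMP2 least (−0.41). The count of 23 fell to 13 and 14 without the pair of batch A and of batch B. CEMIP, which binds hyaluronan and takes part in its breakdown, showed the largest fall of all genes called. It had 7.42, 7.39 and 7.73 at 24 h, against 10.69, 9.96 and 10.12 at 8 h, 6.69-fold lower at 24 h (−2.74 ± 0.46, adjusted p = 0.0005297).

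**Figure D2:**
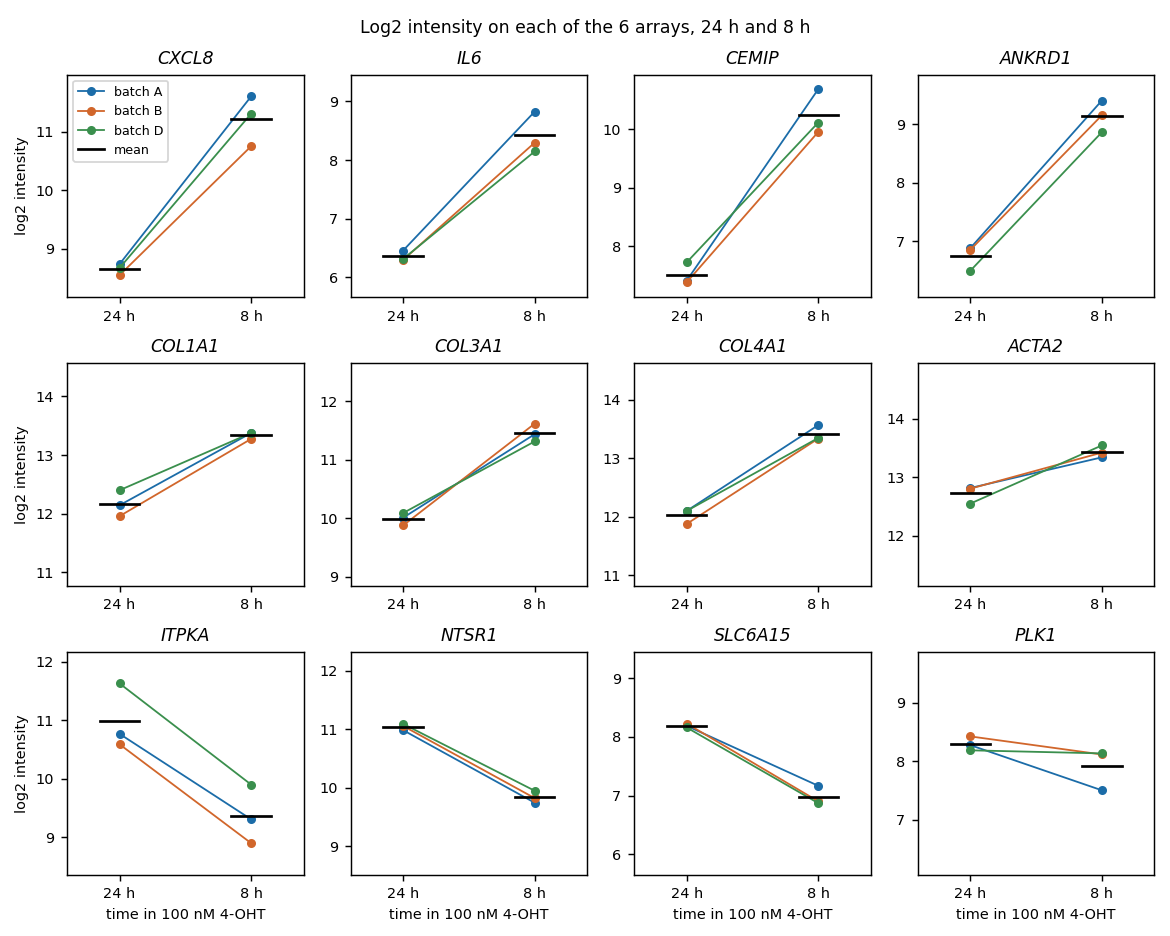
Log2 intensity (vertical axis, the same span of 3.8 in every panel) of 12 genes on the 24 h arrays (left of each panel) and the 8 h arrays (right); points joined by a line are arrays of the same batch, and black bars are means of 3 arrays. The 24 h and 8 h arrays do not overlap in any of the 12 panels, and the PLK1 arrays differ least, with pair differences of 0.77, 0.31 and 0.05.

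Enzymes that modify and export collagen had 6 of 17 measured members called, all lower (median −0.25), against 5.68% of all genes. BMP1, the procollagen protease, differed by −0.57 ± 0.11, SERPINH1, the collagen chaperone, by −0.58 ± 0.14, KDELR3, a receptor for proteins of the endoplasmic reticulum, by −0.48 ± 0.09 (its other kept probes by −0.23 and −0.06), and the prolyl hydroxylases P3H2 and P4HA1 by −0.85 and −0.45. The count was 1 without the pair of batch A or of batch B, 2 without the 24 h array of batch B and 3 without the 8 h array of batch A or B. Calls were lost in 1 alternative for BMP1 (without the pair of batch A, adjusted p = 0.0581), 2 for KDELR3, 6 for SERPINH1, 7 for P3H2 and 11 for P4HA1 (adjusted p up to 0.0987, 0.123, 0.174 and 0.188). For SERPINH1 the arrays overlapped, at 10.71, 10.34 and 11.24 for 24 h, against 11.30, 11.14 and 11.58 for 8 h. A second P4HA1 probe differed by −0.31.

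Contractile genes of smooth muscle and myofibroblasts had 7 of 14 measured members called, all lower at 24 h (5.68% of all genes were). The other 7 did not pass. The difference was negative for all 14 (median −0.43). TPM1, a tropomyosin of actin filaments, had 11.67, 11.75 and 11.91 at 24 h, against 12.87, 12.90 and 12.78 at 8 h (−1.07 ± 0.16), and its other kept probe differed by −0.31. ACTA2, smooth muscle actin, had 12.81, 12.80 and 12.55 at 24 h, against 13.34, 13.42 and 13.54 at 8 h (−0.71 ± 0.14, adjusted p = 0.00199). The collagen-binding integrin ITGA11 differed by −0.997 ± 0.16 and PALLD, which anchors actin bundles, by −0.95 ± 0.11. The calls of TPM1, ACTA2, ITGA11 and PALLD held in every alternative. CNN1, a calponin, differed by −0.83 ± 0.17, a call lost without the pair of batch B (adjusted p = 0.0632).

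Of 17 measured targets of SRF and YAP, 9 passed, all lower (median −0.37), against 5.68% of all genes. ANKRD1, a muscle ankyrin repeat protein whose gene YAP activates, had 6.88, 6.85 and 6.50 at 24 h, against 9.40, 9.15 and 8.86 at 8 h. The gap between the times was several times the spread within either, and ANKRD1 was 5.26-fold lower (−2.40 ± 0.19, adjusted p = 1.485e-07). The matricellular proteins CCN1 and CCN2 differed by −0.87 ± 0.18 and −0.80 ± 0.14, and F3, the coagulation tissue factor, by −0.96 ± 0.18. These 3 calls held in every alternative, with CCN1 closest to the threshold (adjusted p up to 0.0497). The count of 9 became 5 without the pair of batch D. Among TGF-beta, BMP and ID genes 6 of 22 measured passed, all lower (median −0.32), against the same 5.68%. SMAD7, an inhibitor of TGF-beta receptors, had 7.64, 7.56 and 7.07 at 24 h, against 8.63, 8.55 and 8.33 at 8 h (−1.08 ± 0.17). GREM1, a secreted BMP antagonist, differed by −0.995 ± 0.13. ID3, a BMP-induced inhibitor of helix-loop-helix factors, differed by −1.09 ± 0.26, a call lost without the 24 h array of batch D and without the pairs of batch B and D (adjusted p up to 0.131). PMEPA1 differed by −0.58 ± 0.12, with a second probe at −0.08, and lost its call without the pair of batch D (adjusted p = 0.0683). The count of TGF-beta, BMP and ID genes became 4 without the 24 h array of batch B, the 8 h array of batch A or the pair of batch A or D, and 3 without the pair of batch B.

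**Figure D3:**
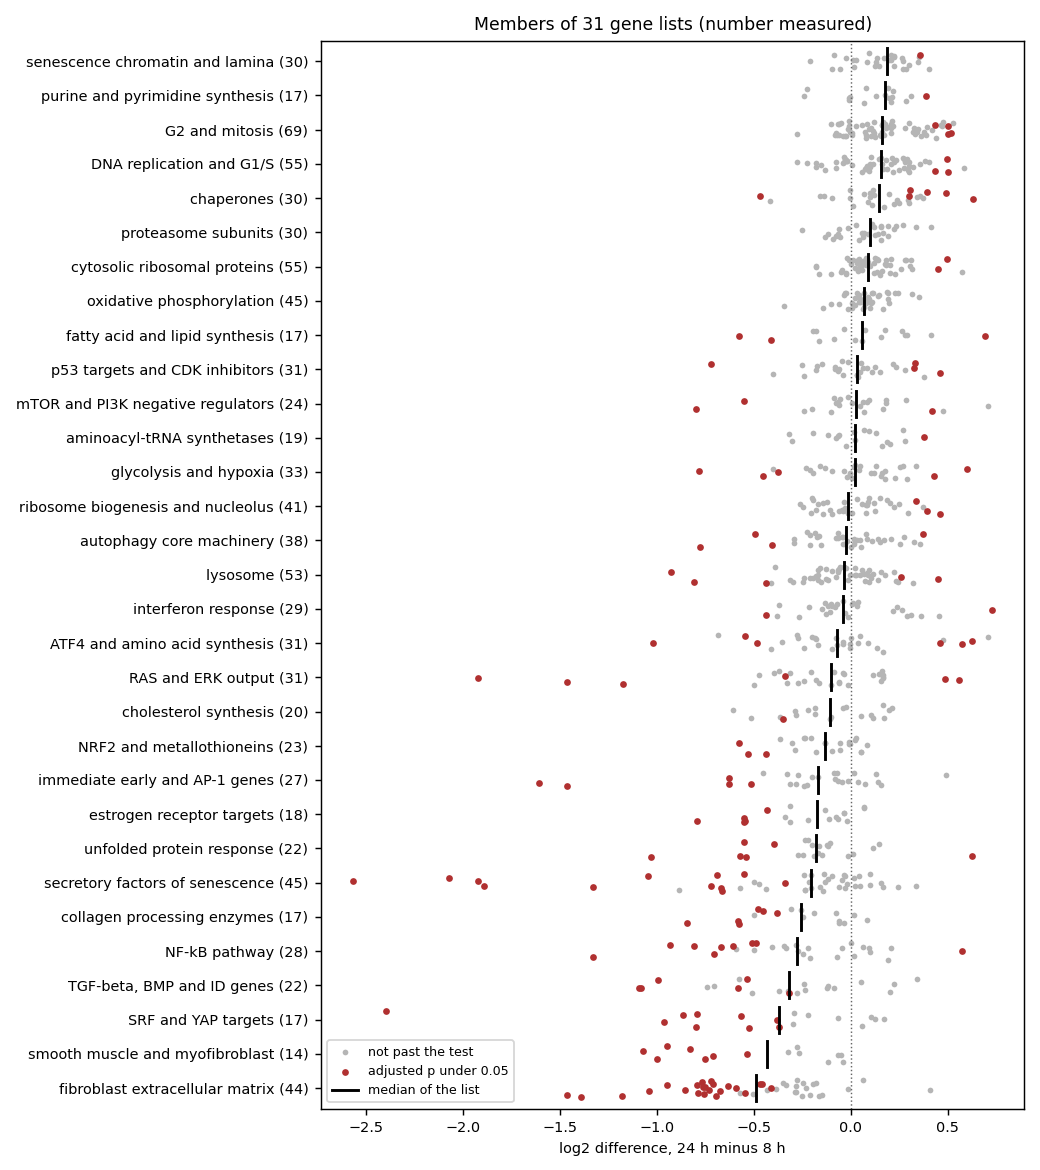
Log2 difference between 24 h and 8 h (24 h minus 8 h, horizontal axis) of each measured member of 31 gene lists (rows, with the number measured). Red points passed an adjusted p of 0.05, grey points did not, and black bars are list medians, which run from 0.19 to −0.49. With median centring the medians of all 13 lists above 0 turned negative, as did the median of all genes (−0.15), and 10 of the 31 lists lay above that all-gene median.

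The direct read-outs of RAS signalling did not move one way. Among 31 measured RAS and ERK output genes, 2 were called higher and 4 lower (median −0.10), beside 2.74% and 5.68% of all genes. DUSP1, a MAP kinase phosphatase and an immediate early gene, had 10.999, 10.93 and 10.45 at 24 h, against 12.54, 12.29 and 11.95 at 8 h (−1.46 ± 0.19, adjusted p = 3.761e-05). HBEGF, an EGF receptor ligand, had 7.18, 7.21 and 6.80 at 24 h, against 8.50, 8.29 and 7.92 at 8 h (−1.17 ± 0.19). The higher members were ETV5, an ERK-induced ETS factor (0.49), and SPRED2, an inhibitor of RAF activation (0.56 ± 0.16), whose arrays overlapped and whose call was lost in 9 alternatives (adjusted p up to 0.406). DUSP6, the ERK phosphatase that ERK itself induces, had 7.09, 7.02 and 7.97 at 24 h, against 7.17, 7.10 and 7.31 at 8 h, and did not pass (0.17 ± 0.29, adjusted p = 0.7912). The 24 h array of batch D was the one that stood above the rest. SPRY2, another feedback inhibitor, differed by −0.39 ± 0.17 (adjusted p = 0.1671). HRAS had 9.79, 9.91 and 9.37 at 24 h, against 9.28, 9.27 and 9.34 at 8 h (0.39 ± 0.13, adjusted p = 0.06736). The 24 h array of batch D lay at the level of the 8 h arrays. HRAS passed with the 6 arrays alone (adjusted p = 0.036), with the 12 arrays of 0 h to 24 h (adjusted p = 0.0335), without the 24 h array of batch D (0.55, adjusted p = 0.0171) and without the pair of batch D (0.57, adjusted p = 0.0273). No source used here says whether the HRAS probe reads the ER:RAS transcript. ESR1 was on the array but not above background often enough to be tested. The count of RAS and ERK genes called, 6, was between 2 and 5 when an array or a pair was left out, with 3 without the 24 h or the 8 h array of batch A, 3 without the pair of batch B and 2 without the pair of batch A.

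Of 27 measured immediate early and AP-1 genes, 5 passed, all lower (median −0.17), against 5.68% of all genes. Beside PTGS2 and DUSP1 these were ZFP36, which speeds decay of cytokine mRNAs (−0.63 ± 0.17), ATF3 (−0.63 ± 0.17) and KLF2 (−0.51). The ZFP36 and ATF3 calls were lost in 7 and 6 alternatives (adjusted p up to 0.226 and 0.278), and without the pair of batch A the list's count was 1. It was 2 without the 24 h array of batch A or B, the 8 h array of batch A or the pair of batch B or D, and 3 without the 8 h array of batch D. EGR1, a serum response transcription factor, had 10.15, 10.01 and 10.66 at 24 h, against 10.58, 10.08 and 10.98 at 8 h, and the arrays overlapped (−0.27 ± 0.21, adjusted p = 0.467).

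Other strong falls fell outside these lists. NRXN3, a neurexin of cell contacts, had 7.10, 7.21 and 7.01 at 24 h, against 9.07, 9.11 and 8.72 at 8 h (−1.86 ± 0.19). EDN1, the vasoconstrictor endothelin-1, had 8.79, 8.67 and 8.70 at 24 h, against 10.61, 10.72 and 10.22 at 8 h (−1.80 ± 0.24). Neither gene's arrays overlapped between the times. ABCC3, an export pump for organic anions, differed by −1.59 ± 0.16, CRISPLD2, a secreted protein, by −1.57 ± 0.16 and SLC7A2, a carrier of cationic amino acids, by −1.47 ± 0.24. All 5 calls held in every alternative.

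The largest rise was that of ITPKA, a kinase of inositol trisphosphate that also bundles actin. ITPKA had 10.77, 10.59 and 11.63 at 24 h, against 9.31, 8.90 and 9.90 at 8 h, so that batch D was the highest at both times. It was 3.09-fold higher at 24 h (1.63 ± 0.19, adjusted p = 1.22e-05). LCE2A, a gene of the late cornified envelope of skin, had 7.91, 7.65 and 7.73 at 24 h, against 6.57, 6.39 and 6.17 at 8 h (1.39 ± 0.18). SLC6A15, a carrier of neutral amino acids, had 8.19, 8.23 and 8.16 at 24 h, against 7.17, 6.90 and 6.87 at 8 h, with the 24 h arrays within 0.1 of each other (1.21 ± 0.10, adjusted p = 3.077e-07). Its other probes differed by 1.04 and 0.72. NTSR1, the neurotensin receptor, had 10.98, 11.05 and 11.09 at 24 h, against 9.74, 9.82 and 9.95 at 8 h (1.20 ± 0.13, adjusted p = 4.505e-06). KCTD12, an auxiliary subunit of GABA-B receptors, had 8.61, 8.64 and 9.36 at 24 h, against 7.70, 7.93 and 7.91 at 8 h (1.02 ± 0.15). ANPEP, the surface aminopeptidase N, differed by 0.93 ± 0.15 and ANXA2R by 0.82 ± 0.13. The calls of these 7 genes, ITPKA to ANXA2R, held in every alternative run, median centring included.

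The other 8 of the 15 largest rises lost their call somewhere. RGS17, which speeds GTP hydrolysis by G proteins (1.02 ± 0.17), SLC25A10, the mitochondrial dicarboxylate carrier (0.79 ± 0.14), and TNFRSF19, a receptor of the TNF receptor family (0.79 ± 0.14), lost it with median centring alone (adjusted p = 0.103, 0.0611 and 0.176). SERPINB7, a serpin protease inhibitor (0.83 ± 0.18), lost it with median centring and without the pair of batch A (adjusted p up to 0.149). CACYBP, which binds calcyclin (0.81 ± 0.20), HOPX (0.79 ± 0.19), AHNAK2 (0.75 ± 0.19) and ABCA1, the cholesterol efflux pump (0.75 ± 0.22), lost it in 6, 6, 7 and 10 alternatives (adjusted p up to 0.139, 0.25, 0.252 and 0.384). A second CACYBP probe differed by 0.01, a second HOPX probe by 0.24 and a second TNFRSF19 probe by 0.38. For ABCA1 the 8 h array of batch D, at 10.14, was at the level of the 24 h arrays, at 10.17, 10.13 and 10.21, against 9.08 and 9.04 on the other 8 h arrays.

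Genes of G2 and mitosis stood slightly higher at 24 h by most members, and few passed. Of 69 measured, 4 were called, all higher (2.74% of all genes were), and 53 of 69 differences were positive, with a median of 0.16 that became −0.08 with median centring, or 0.07 above the median of all genes under that scaling. PLK1, the polo-like kinase of mitotic entry and spindle assembly, had 8.28, 8.43 and 8.19 at 24 h, against 7.51, 8.12 and 8.14 at 8 h. Its arrays did not overlap, yet the 8 h arrays of batch B and D were close to the 24 h level, and the difference did not pass (0.38 ± 0.13, adjusted p = 0.08563). Without the 8 h array of batch A the PLK1 difference was 0.18 (adjusted p = 0.487), and without the 8 h array of batch D it was 0.49 (adjusted p = 0.0441). It was also called without the 4 d arrays (adjusted p = 0.041). The 4 called members were BIRC5, which encodes survivin of the chromosomal passenger complex, CKS1B and CKS2, which bind cyclin-dependent kinases, and PTTG1, or securin. CKS2 had 11.66, 11.79 and 11.57 at 24 h, against 10.99, 11.22 and 11.26 at 8 h (0.52 ± 0.16, adjusted p = 0.04745). BIRC5 had 7.74, 7.79 and 7.85 at 24 h, against 7.28, 7.17 and 7.63 at 8 h (0.44 ± 0.10, adjusted p = 0.006656). All 4 calls were lost without the 8 h array of batch A, without that of batch B and with median centring (highest adjusted p in any alternative, 0.243 for BIRC5, 0.609 for CKS1B, 0.611 for CKS2 and 0.613 for PTTG1). The count was 1, 2 and 1 without the 24 h array of batch A, B and D, 0 without the pair of batch A or of B and 2 without that of batch D. CCNB1, mitotic cyclin B1, differed by 0.40, 0.19 and −0.02 in the pairs of batch A, B and D (0.19 ± 0.22). The median standard error of these genes was 0.20, against 0.11 for all genes, in the fit that shares its spread with the later time points. With the 6 arrays alone, 17 of the 69 passed, all higher, and with the 12 arrays of 0 h to 24 h, 17 higher and 1 lower. Of all 10958 genes, these fits called 613 and 514 higher.

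Genes of DNA replication and the G1/S transition gave a like picture, with 3 of 55 called, all higher (2.74% of all genes were). Their median of 0.15 became −0.05 with median centring, which is 0.09 above the median of all genes under that scaling. E2F1, the transcription factor of S phase genes, had 8.18, 8.05 and 8.03 at 24 h, against 7.77, 7.42 and 7.57 at 8 h (0.50 ± 0.13, adjusted p = 0.0156). PRIM1, the catalytic primase subunit, differed by 0.50 ± 0.14 and GINS4, of the replicative helicase, by 0.43 ± 0.13. The E2F1, PRIM1 and GINS4 calls were lost in 6, 9 and 11 alternatives (adjusted p up to 0.345, 0.465 and 0.603), and 0 members were called without the 24 h array of batch A, without any of the 3 pairs or with median centring, and 1 without the 24 h or the 8 h array of batch B. MCM2, of the same helicase, had 8.17, 8.13 and 8.20 at 24 h, against 7.86, 7.82 and 7.85 at 8 h (0.32 ± 0.12, adjusted p = 0.1095, and 0.0239 with the 6 arrays alone). CCNE2, cyclin E2, differed by −0.27 ± 0.17 (a second probe by 0.03) and CCND1, cyclin D1, by −0.03 ± 0.09.

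The best-known genes of senescent arrest did not pass over the same step. CDKN1A, which encodes the CDK inhibitor p21, had 11.99, 12.04 and 12.49 at 24 h, against 12.16, 12.07 and 12.35 at 8 h (−0.02 ± 0.12, adjusted p = 0.9596). Its other kept probe differed by 0.13. CDKN2A, the locus of p16 and ARF, had 7.38, 7.17 and 7.46 at 24 h, against 6.72, 6.83 and 7.33 at 8 h. These arrays overlapped, and the difference did not pass (0.38 ± 0.18, adjusted p = 0.2213). CDKN2B, which encodes p15, differed by 0.05 ± 0.18 (a second probe by −0.03) and LMNB1, lamin B1 of the nuclear envelope, by −0.06 ± 0.23. Of 31 p53 targets and CDK inhibitors, 3 were called higher and 1 lower, beside 2.74% and 5.68% of all genes. The higher ones were BAX, which promotes cell death at mitochondria (0.46 ± 0.10), CCNG1 (0.33 ± 0.10) and DDB2 of nucleotide excision repair (0.33 ± 0.09), calls lost with median centring (adjusted p up to 0.273, 0.901 and 0.49 over all alternatives), for BAX also without the pair of batch D and for CCNG1 and DDB2 in 10 alternatives each. The lower one was GADD45B (−0.72 ± 0.14), which held in every alternative. The count of 4 became 2 without the 24 h array of batch A or B, the 8 h array of batch A or D or the pair of batch A or B, and 1 without the pair of batch D. Of 30 chromatin and lamina genes HMGA1 alone was called (0.36 ± 0.08), and its call was lost with median centring and without the pair of batch A or D (adjusted p up to 0.132). The related HMGA2 differed by 0.22 ± 0.10 (adjusted p = 0.2005).

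Protein folding genes changed in both directions. Of 22 measured genes of the unfolded protein response, which serves the endoplasmic reticulum, 5 were called lower and 1 higher (median −0.18). Of all genes, 5.68% were lower and 2.74% higher. DNAJB9, a co-chaperone there, had 8.79, 8.79 and 8.89 at 24 h, against 9.84, 9.69 and 10.04 at 8 h (−1.03 ± 0.13), a call that held throughout. HSPA5, the chaperone BiP, differed by −0.57 ± 0.13 and lost its call without the 24 h array of batch A and without the pairs of batch A and B (adjusted p up to 0.121). XBP1, a transcription factor of the response, differed by −0.55 ± 0.11, a call lost without the pair of batch B (adjusted p = 0.0609). DDIT3, the stress-induced factor CHOP, had 8.35, 8.12 and 8.41 at 24 h, against 7.80, 7.62 and 7.60 at 8 h (0.63 ± 0.12), a call lost with median centring (adjusted p = 0.244). Of 30 chaperones, mostly cytosolic, 5 were called higher and 1 lower, beside 2.74% and 5.68% of all genes. Their median was 0.15, and −0.08 with median centring, which is 0.07 above the median of all genes under that scaling. FKBP4 (0.63 ± 0.12) and STIP1 (0.49 ± 0.08), partners of HSP90, lost their calls with median centring alone (adjusted p = 0.194 and 0.529), and HSPE1, of the mitochondrial chaperonin, differed by 0.39 ± 0.10 and lost its call in 6 alternatives (adjusted p up to 0.602). CRYAB, a small heat shock protein, was the member lower at 24 h (−0.47 ± 0.11), above background on 1 of 3 arrays there and on 3 of 3 at 8 h, and lost its call without the 24 h or the 8 h array of batch B or that pair (adjusted p up to 0.154). The counts of called genes became 3 without the pair of batch A or B for the unfolded protein response, and 2 without the 24 h or 8 h array or the pair of batch B and 3 without the pair of batch D for the chaperones.

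Autophagy is the delivery of cell contents to lysosomes. Of 38 measured genes of the core machinery, 1 was called higher and 3 lower (median −0.02), beside 8.41% of all genes called. GABARAPL1, an ATG8 protein of the autophagosome membrane, had 9.67, 9.55 and 9.84 at 24 h, against 10.55, 10.26 and 10.57 at 8 h (−0.78 ± 0.15, adjusted p = 0.002375). Its arrays did not overlap, and its call was lost without the pair of batch A (adjusted p = 0.0546). OPTN, a cargo receptor, differed by −0.49 ± 0.13, ATG101, of the starting kinase complex, by −0.40 ± 0.08 and ATG4C, a protease of ATG8 proteins, by 0.38 ± 0.09, and these calls were lost in 5, 2 and 6 alternatives (adjusted p up to 0.155, 0.0586 and 0.58). SQSTM1, the cargo receptor p62, had 10.11, 9.92 and 10.47 at 24 h, against 9.90, 9.37 and 10.25 at 8 h, higher in 3 of 3 pairs and not called (0.33 ± 0.19, adjusted p = 0.3223). Of 53 lysosomal genes, 2 were called higher and 3 lower (median −0.03), beside 2.74% and 5.68% of all genes. The protease CTSO (−0.93 ± 0.15) and the cholesterol exporter NPC1 (−0.81 ± 0.14) held their calls in every alternative, and in both the 24 h array of batch D was the lowest, at 6.28 against 7.40 at 8 h for CTSO and 8.11 against 8.97 at 8 h for NPC1. Among 24 negative regulators of mTOR and PI3K, INPP4B was called higher (0.42 ± 0.12), and DDIT4L (−0.80 ± 0.18) and IRS2 (−0.55 ± 0.16) lower, beside the same shares of all genes. The INPP4B, DDIT4L and IRS2 calls were lost in 9, 3 and 11 alternatives (adjusted p up to 0.466, 0.0805 and 0.201), DDIT4L without the 8 h array of batch A or the pair of batch A or D. DDIT4, an mTOR inhibitor induced by stress, had 7.57, 7.42 and 7.42 at 24 h, against 6.77, 6.84 and 6.67 at 8 h, and did not pass with all 24 arrays (0.71 ± 0.33, adjusted p = 0.2121), while it did with the 6 arrays alone (adjusted p = 0.000286). The autophagy count of 4 became 2, 1 and 2 without the pair of batch A, B and D. The lysosome count of 5 became 2 without the 24 h array of batch A or B, the 8 h array of batch B or any pair, and 3 without the other arrays.

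The remaining lists had 0 to 6 calls, beside 8.41% of all genes called. Of 33 glycolysis and hypoxia genes, PFKM (0.60 ± 0.14) and GPI were higher and PFKFB4 (−0.78 ± 0.23), P4HA1 and SLC2A3 lower. Of 31 genes of ATF4 and amino acid synthesis, CEBPB, DDIT3 and SHMT1 were higher and NUPR1, STC2 and PYCR1 lower. NUPR1 (−1.02 ± 0.31) had 6.93, 6.84 and 7.01 at 24 h, against 7.49, 7.51 and 8.83 at 8 h, the last far above the others, and lost its call in 14 alternatives (adjusted p up to 0.388). ISG20, an interferon-induced exonuclease, rose (0.73 ± 0.15, held throughout), and IFI6 was the other interferon gene called, lower (−0.44 ± 0.12), among 29. LPIN1, a phosphatidate phosphatase, had 10.64, 10.80 and 11.06 at 24 h, against 10.28, 10.02 and 10.13 at 8 h (0.69 ± 0.11), a call lost with median centring (adjusted p = 0.216). Of 18 genes known as estrogen receptor targets in breast cells, 5 were lower (CXCL12, IGFBP4, XBP1, STC2 and IL6ST), 0 higher. Of 55 cytosolic ribosomal proteins 2 were called (RPS7 and RPS15, higher), and of 41 ribosome biogenesis genes 3 (FBL, IMP4 and UTP4, higher). Of 17 purine and pyrimidine synthesis genes 1 was called (GART, higher), and of 19 tRNA synthetases 1 (AARS1, higher). Median centring removed each of these calls, as did other alternatives. They were lost in 14 of 21 alternatives for AARS1, 10 for RPS7, 10 for RPS15, 9 for UTP4, 8 for FBL, 8 for GART and 2 for IMP4. The highest limma adjusted p was 0.85, for UTP4. The other GART probes differed by 0.36 and 0.08. Of 20 cholesterol synthesis genes 1 was called (STARD4, lower), HMGCS1 differed by −0.61 ± 0.26 without passing, and of 23 NRF2 and metallothionein genes 3 were lower (ME1, GCLC and MT1X). Of 45 oxidative phosphorylation genes and 30 proteasome subunits, limma called 0, with 5 and 4 at an unadjusted p under 0.05, and the 6 arrays alone gave 2 and 1. Calls were lost in 4, 7 and 7 alternatives for PFKM, GPI and PFKFB4 (adjusted p up to 0.285, 0.729 and 0.306), in 7 for IFI6 (0.254), 11 for CXCL12 (0.273), 6 for ME1 (0.0906), 7 for GCLC (0.18), 12 for MT1X (0.319) and 11 for STARD4 (0.27). The STC2 call was lost with median centring alone (adjusted p = 0.0609). Other CXCL12 probes differed by −0.21 and −0.33.

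Set in the whole time course, CXCL8 and IL6 were lowest at 24 h, while COL1A1 and COL4A1 were lower still at 2 d and COL15A1 from 2 d on. CXCL8 averaged 10.72 at 0 h, 11.58 at 2 h, 11.22 at 8 h, 8.65 at 24 h, 10.73 at 2 d, 14.04 at 4 d, 14.21 at 6 d and 14.15 at 8 d (means of 3 arrays). IL6 averaged 8.31, 9.73, 8.42, 6.35, 7.19, 12.46, 13.69 and 13.60 over the same times, so that both cytokines stood far higher from 4 d on. COL1A1 averaged 13.59, 13.70, 13.34, 12.17, 12.00, 13.06, 12.43 and 12.04, and COL4A1 averaged 13.65, 13.72, 13.42, 12.03, 11.88, 13.72, 13.83 and 13.66. COL4A1 thus returned to its starting level after 2 d, while COL15A1 went on down (9.46, 9.62, 9.12, 8.08, 7.35, 6.60, 5.99 and 5.88). The 6 d and 8 d means of COL15A1 were under the lowest values above background on those arrays, 6.03 to 6.15. The end of its fall therefore cannot be read. PLK1 averaged 7.35, 7.18, 7.92, 8.30, 7.34, 6.03, 5.85 and 6.00, highest at 24 h, and its means from 4 d on were also at or under that floor. ITPKA averaged 8.70, 9.04, 9.37, 10.997, 11.76, 10.98, 10.01 and 9.51, with its peak at 2 d, and SLC6A15 averaged 6.61, 6.61, 6.98, 8.19, 10.21, 10.95, 10.82 and 10.53. These levels share the 8 h and 24 h arrays with the comparison and are given as a description.

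**Figure D4:**
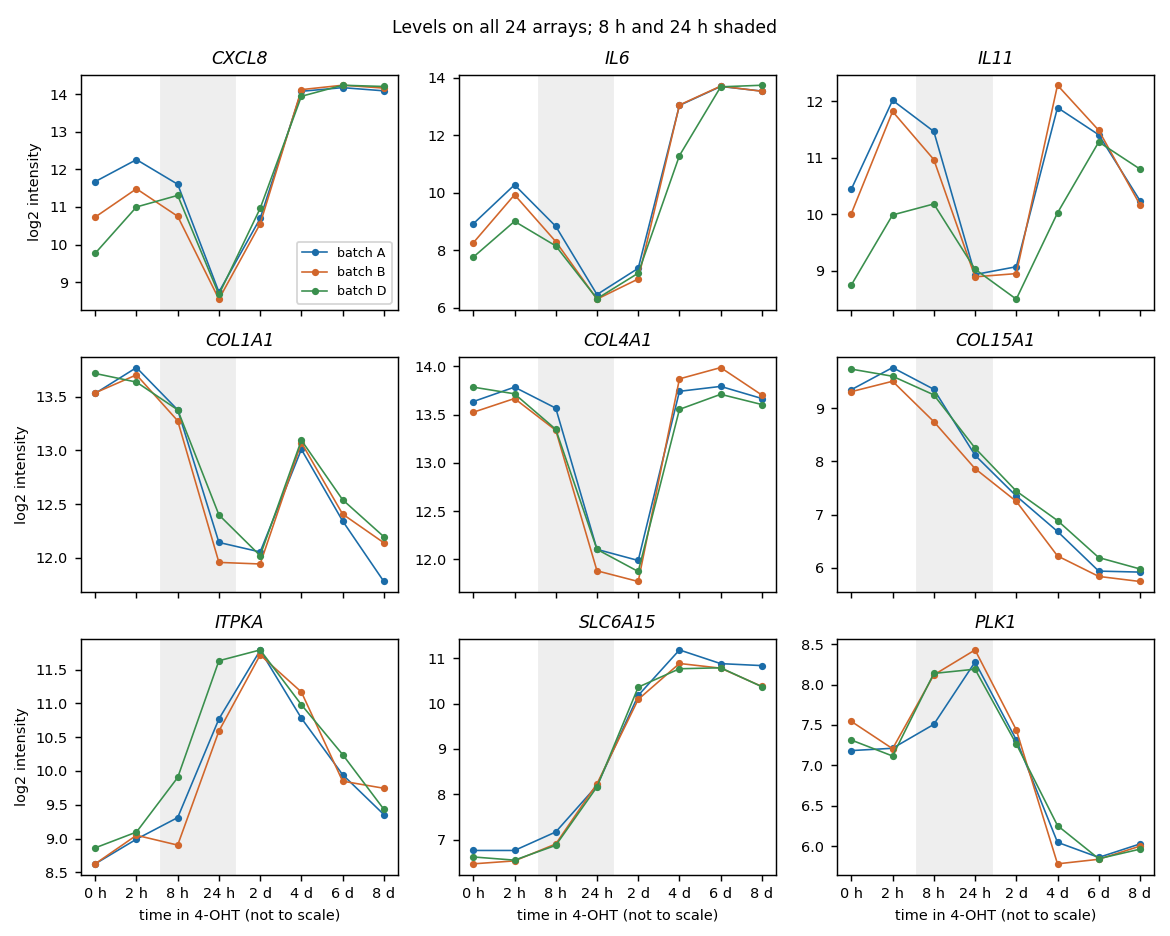
Log2 intensity (vertical axis) of 9 genes on all 24 arrays over time in 4-OHT (horizontal axis, time points evenly spaced); each line is a batch, and the 8 h and 24 h arrays are shaded. CXCL8 and IL6 are lowest at 24 h, the collagens drop between 8 h and 24 h, and PLK1 is highest at 24 h.

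As medians over list members, relative to the 0 h mean, the extracellular matrix stood at −0.03, −0.17 and −0.17 at 8 h in batches A, B and D, at −0.60, −0.65 and −0.62 at 24 h, and at −0.71, −0.87 and −0.70 at 2 d. The G2 and mitosis genes stood at 0.16, 0.40 and 0.12 at 8 h, 0.38, 0.41 and 0.30 at 24 h, and −0.46, −0.42 and −0.72 at 2 d. The NF-kB pathway stood at −0.24, −0.36 and −0.24 at 24 h and at 0.86, 0.89 and 0.63 at 4 d. The matrix list was thus most of the way to its 2 d level by 24 h, while the mitotic list was still above 0.

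**Figure D5:**
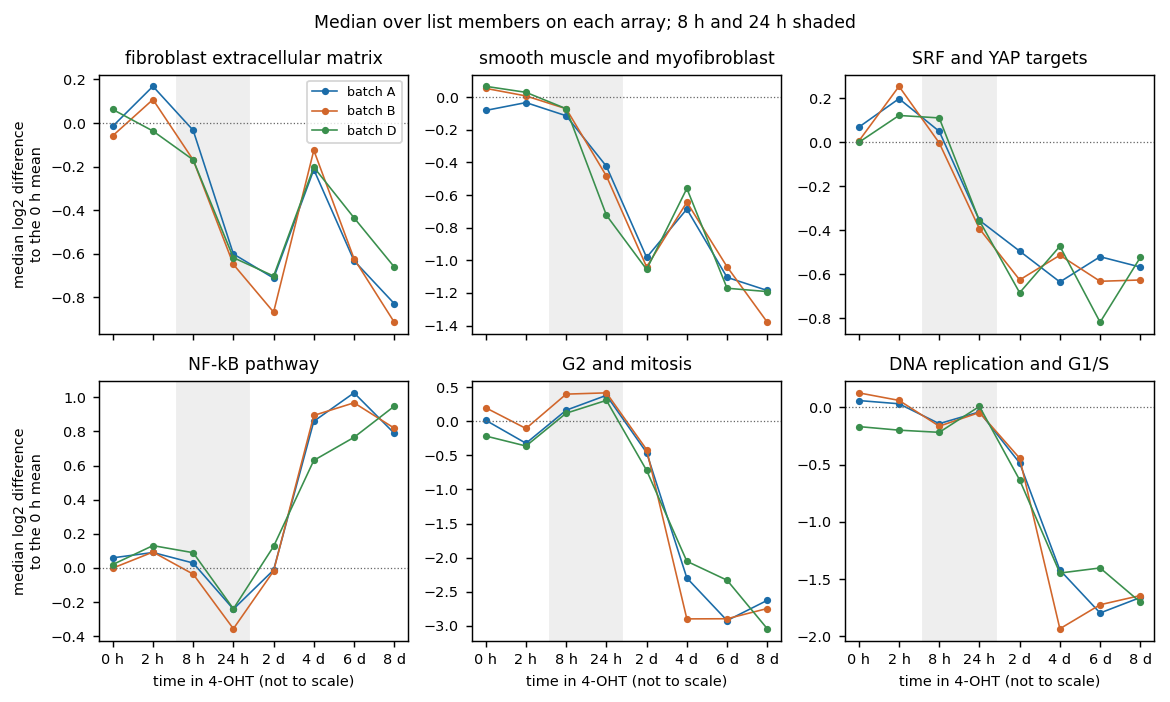
Median log2 difference to the 0 h mean over the members of 6 gene lists (vertical axis) on each array over time in 4-OHT (horizontal axis, evenly spaced); each line is a batch, and 8 h and 24 h are shaded. The matrix, contractile and SRF and YAP lists drop between 8 h and 24 h in all 3 batches, and the mitotic list drops after 24 h.

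Promoters are shown for genes of both directions, to set known motifs beside these changes. The sequences are from RefSeq (GRCh38.p14), 250 bases before to 50 after the gene's start, 5′ to 3′ on the gene's strand; 9032 of the 10958 genes tested had one. AP-1 proteins bind TGACTCA. Of the named genes that carry it, DDIT3 and ISG20 were called higher and ME1 lower, and their promoters are not shown. The IL6 promoter held no match. In the promoters of CXCL8 (chr4:73740319-73740618, plus strand), IL11 (chr19:55370414-55370713, minus strand) and F3 (chr1:94541710-94542009, minus strand), all lower at 24 h, capitals mark this motif on either strand (TGACTCA or TGAGTCA), at position −137, −96 and −210 from the start.
CXCL8: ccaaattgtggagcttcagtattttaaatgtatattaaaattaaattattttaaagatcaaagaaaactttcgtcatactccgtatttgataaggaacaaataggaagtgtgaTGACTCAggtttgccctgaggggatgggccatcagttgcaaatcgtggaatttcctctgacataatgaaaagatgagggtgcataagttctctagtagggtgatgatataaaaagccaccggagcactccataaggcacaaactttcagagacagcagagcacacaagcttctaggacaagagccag
IL11: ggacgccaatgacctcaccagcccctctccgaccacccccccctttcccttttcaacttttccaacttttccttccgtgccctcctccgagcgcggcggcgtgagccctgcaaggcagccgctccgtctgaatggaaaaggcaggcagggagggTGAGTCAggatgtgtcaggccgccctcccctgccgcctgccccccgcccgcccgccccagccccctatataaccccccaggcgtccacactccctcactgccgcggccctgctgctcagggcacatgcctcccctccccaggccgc
F3: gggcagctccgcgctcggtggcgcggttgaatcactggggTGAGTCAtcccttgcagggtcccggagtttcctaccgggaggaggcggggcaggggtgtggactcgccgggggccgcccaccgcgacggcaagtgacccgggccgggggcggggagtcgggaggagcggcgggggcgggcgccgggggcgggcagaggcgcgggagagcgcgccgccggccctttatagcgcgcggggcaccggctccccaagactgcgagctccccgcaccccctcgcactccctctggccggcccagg
In the promoters of CKS2 (chr9:89310945-89311244, plus strand), called higher, and PLK1 (chr16:23678639-23678938, plus strand), capitals mark the CCAAT box (CCAAT or ATTGG) and the cell cycle homology region (CHR, TTTGAA or TTCAAA), the elements through which many mitotic genes are timed. The CHR lies at −29 in both genes, and CCAAT at −148, −70 and −52 in CKS2 and at −73 in PLK1.
CKS2: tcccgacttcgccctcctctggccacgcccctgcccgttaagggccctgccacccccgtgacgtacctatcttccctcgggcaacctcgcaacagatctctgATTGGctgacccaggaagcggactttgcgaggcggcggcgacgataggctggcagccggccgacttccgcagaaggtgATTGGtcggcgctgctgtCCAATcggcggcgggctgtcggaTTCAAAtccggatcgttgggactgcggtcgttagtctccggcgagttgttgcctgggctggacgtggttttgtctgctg
PLK1: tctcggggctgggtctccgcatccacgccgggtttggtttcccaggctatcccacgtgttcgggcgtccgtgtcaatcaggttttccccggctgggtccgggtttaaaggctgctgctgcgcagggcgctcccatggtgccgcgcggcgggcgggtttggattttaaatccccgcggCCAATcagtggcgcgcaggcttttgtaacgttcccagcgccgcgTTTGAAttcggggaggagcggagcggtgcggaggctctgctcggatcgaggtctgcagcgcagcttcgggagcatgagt

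Shares over whole groups give the background of these motifs. TGACTCA, on either strand, was in 3.26% of all 9032 promoters, 3.46% of the 260 promoters of genes called higher, 3.59% of the 502 of genes called lower, and 12.1% of the 33 of secretory factors (4 promoters). It was in 18.8% of the 16 promoters of NRF2 and metallothionein genes and 15.8% of the 19 of RAS and ERK output genes. For the 19 of immediate early and AP-1 genes the share was 5.26%. TTTGAA was in 10.4% of all promoters, 9.23% of those of genes called higher, 6.77% of those of genes called lower and 66.7% of the 57 promoters of G2 and mitosis genes. CCAAT was in 37.2% of all promoters, 43.1% of genes called higher, 33.1% of genes called lower, 68.4% of G2 and mitosis genes and 33.3% of the 33 of extracellular matrix genes. It was in 83.3% of the 18 promoters of cholesterol synthesis genes and 81.8% of the 22 of unfolded protein response genes. The median differences of those lists were −0.10 and −0.18. The other letters searched on both strands were TTCGAA (in 1.78% of all promoters), GGCGGGAA (5.10%) and TTTCCCGC (2.69%), both E2F motifs that can overlap, TGACGTCA of CREB (3.27%) and the E box CACGTG (10.2%). CACGTG was in 13.8% of promoters of genes called higher and 6.37% of those of genes called lower, and TGACGTCA in 1.54% and 3.78%. GGCGGGAA was in 30.4% of the 46 promoters of DNA replication genes. These shares describe 300-base windows, and a match is neither a bound site nor a cause.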

How the data were processed

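RNA of IMR90 ER:RAS cells was extracted with RNeasy and labelled as biotinylated cRNA, per the labels' protocols, and hybridised to Illumina human-6 v2 arrays. The series' value table holds log2 intensities of 48701 probes that the authors deposited. Judged by the values it is quantile-normalized without background correction, since it differs from a quantile normalization of the deposited non-normalized log2 values by a median of 0.00274, so folds are compressed. The build and the software of this step are not given in the sources used here.

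A probe was above background where a model of each array's mode and lower spread gave a probability under 0.01, and was kept if so on at least 3 of 24 arrays. Of the probes, 23687 had 1 gene symbol, 35 several and 24979 none, and symbols were updated through Entrez IDs (99.85% matched). Where a gene had several kept probes (1201 genes), the brightest by its mean over all arrays stood for it. In 27 of 127 called genes with another kept probe, another probe differed in the opposite direction.

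Genes were tested with limma 3.58.1 in R 4.3.3 on all 24 arrays, with time and batch as terms (14 residual degrees of freedom), the contrast 24 h minus 8 h and Benjamini-Hochberg adjustment over 10958 genes (threshold 0.05). Standard errors come from this fit. The batch letters pair the arrays because the labels give biological batches. Residuals of the 24 h and 8 h arrays of batch A, B and D correlated at 0.0233, 0.416 and 0.383. In simulated data for this comparison (10958 genes, 200 of them changed), 69% of changes of 0.5 and 100% of changes of 1 (log2) were recovered. Of the calls, 9.14% were unchanged genes, above the threshold of 0.05. The simulated noise was independent and normal for each gene and array, with no batch term, so the rates in the real arrays may differ.

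Genes named are the 15 largest rises and falls among those called, with the same sign in all 3 pairs and above background on all 3 arrays of a time, up to 4 called members of each of 31 lists, and a fixed set of cell cycle, RAS, senescence and matrix genes. All called members are named for the extracellular matrix and some short lists, beyond that rule and after their values were seen. The comparison, the members and the lists were chosen with earlier results of these data known. Alternatives changed the background correction, scaling, block, arrays in the fit, filter, probe rule and prior, and left out each array and each pair. The number of arrays limits the precision.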

Additional observations from a re-analysis of the deposited data

Results flagged for a closer look

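Of 3549 kept probes without a single gene symbol, which the comparison of named genes leaves out, 76 passed the same limma test at 24 h against 8 h (2.14%), 27 higher and 49 lower. They are given as a count only, since no table used here names their genes. Groups of 3 arrays were not tested for an array standing apart.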

How the results depend on the processing

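Of 131 named genes, 111 passed, 39 of these kept the call in all 21 alternatives, and 0 turned sign among those that passed. The total of 922 called genes was 864 with normexp background correction, 837 with no replicate block, 827 with batch as a random block, 855 to 969 with other filters on dim probes, 891 with the mean of a gene's probes and 906 with a trended, robust prior. It was 391 with median centring, 1623 with the 6 arrays alone and 1454 with the 12 arrays of 0 h to 24 h. Without the replicate block no count of the 4 lists tracked here moved by over 1.5 times. Leaving out single arrays or batch pairs gave 331 to 794 genes, 13 to 22 extracellular matrix genes, 8 to 12 secretory factors, 2 to 7 NF-kB genes and 0 to 3 G2 and mitosis genes, against 23, 12, 9 and 4. The G2 and mitosis count was 2 with normexp correction, 0 with median centring, 17 with 6 arrays and 18 with 12 arrays; the NF-kB count was 15 with 6 arrays and 14 with 12. The added fit without the 4 d arrays, chosen after seeing the data, gave 1189 genes, 6 G2 and mitosis, 23 matrix, 14 secretory and 13 NF-kB genes. The causes were not tested. The planned block for the slide was not run, because no BeadChip was named in the files used here, and dim genes near background have compressed differences.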
